A study of Homo sapiens with 6 samples.

Results

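Chromosome ends were examined as the terminal 3 Mb of autosomes in ATAC-seq peak lists from LNCaP, a human prostate cancer cell line that responds to androgen. ATAC-seq uses a transposase that inserts sequencing adapters into open DNA, so a peak marks a stretch of accessible chromatin. A peak belonged to the ends when it lay wholly within 3 Mb of a chromosome end on any autosome except chromosomes 4, 13, 18 and 19. The short-arm end was position 0, and it was not used for the acrocentric chromosomes 14, 15, 21 and 22. The long-arm end was the largest peak end on that chromosome in any list, so at least 1 peak sits at every long-arm end by construction. This gave 32 ends on 18 chromosomes, 14 on short arms and 18 on long arms, spanning 96 Mb against 2339 Mb in the rest of the same chromosomes. The ends held 3067 of the 39780 peaks in the 3 lists.

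The 3 lists come from 6 libraries in 3 groups of 2. RB-depleted cells carried a hairpin against the retinoblastoma protein (shRB) and were kept for 72 hours in CDT, the hormone-deficient condition. The androgen-treated cells carried the control hairpin (shCON) and received 72 hours of CDT and then 3 hours of DHT (dihydrotestosterone). Their reference carried the same control hairpin and received the 72 hours of CDT alone. The shRB and shCON lines are isogenic per the design text, and whether replicate libraries stem from separate cultures is not stated. The authors pooled both libraries of a group into 1 list, so no difference below can be set against a spread between replicates, and none has a p-value. Intervals are 95% and cover counting error only. Neighbouring peaks are not independent, so these intervals are too narrow for a statement about cultures. Intervals of list-to-list ratios also treat the 2 lists as independent, though they share many sites, which by itself makes them wider. An interval of such a ratio that reaches 1 therefore does not show that the lists are alike. Read depth behind the lists is unknown, and a site missing from a list was not thereby shown to be closed. The lists hold no gene expression, so the depletion of RB could not be checked.

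Human chromosomes end in telomeric repeats, and the stretch just inside them, the subtelomere, mixes segments duplicated between ends with unique sequence. In many chromosomes the outermost bands are rich in genes and in GC bases, and such bands tend to be open and to replicate early. RB holds E2F transcription factors in check and takes part in keeping chromatin compact, while DHT activates the androgen receptor, which binds mainly at distal elements. No peak was matched to a gene here, and sites are named by chromosome arm (16p is the short-arm end of chromosome 16).

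Open sites were crowded towards the chromosome ends in all 3 conditions. The ends held 1254 shRB CDT peaks, 876 shCON DHT peaks and 937 shCON CDT peaks. Of each list's peaks on the 18 chromosomes, this was 10.03% (9.51 to 10.6) for shRB CDT, 8.175% (7.66 to 8.71) for shCON DHT and 9.20% (8.65 to 9.78) for shCON CDT. Per Mb, shRB CDT had 13.1 peaks in the ends and 4.81 in the rest, a ratio of 2.72 (2.56 to 2.88). In shCON DHT the ends had 9.125 peaks per Mb and the rest 4.21, a ratio of 2.17 (2.02 to 2.33). In shCON CDT the ends had 9.76 and the rest 3.95, a ratio of 2.47 (2.31 to 2.64). The ends were denser than the rest on 18 of 18 chromosomes in each list. The rest includes centromeres and other stretches with no peak in any list. Against the 731 of 773 interior 3 Mb windows that held a peak, the mean number of peaks per end was 2.58 times as high in shRB CDT, 2.06 times in shCON DHT and 2.34 times in shCON CDT.

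Density over the 32 ends together was highest in the outermost Mb. In shRB CDT it was 15.4 peaks per Mb in the first Mb, 13.8 in the second, 9.97 in the third and 7.72 in the fourth. In shCON DHT these densities were 10.5, 9.81, 7.125 and 5.66, and in shCON CDT 12.2, 9.84, 7.28 and 5.38. Between 5 and 10 Mb from the end the bins held 5.125 to 7.125 peaks per Mb in shRB CDT, while shCON DHT bins held 4.22 to 5.91 and shCON CDT bins 4.28 to 5.59, still at or above the average of the rest. The 3 Mb boundary therefore falls on a slope and not at a step. Long-arm ends were denser than short-arm ends in each list, with 14.4 against 11.4 peaks per Mb in shRB CDT, 10.2 against 7.71 in shCON DHT and 10.5 against 8.83 in shCON CDT. The rule starts long arms at a peak and short arms at position 0. The slope was steeper on long arms, which in shCON DHT held 12.5, 11.8 and 6.39 peaks per Mb going inwards Mb by Mb. Short arms there held 7.86, 7.29 and 8.07, densest in the innermost Mb, and in shCON CDT 9.64, 8.86 and 8.07. In that innermost Mb short arms exceeded long arms in both shCON lists, with long arms at 6.67 in shCON CDT.

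**Figure D1:**
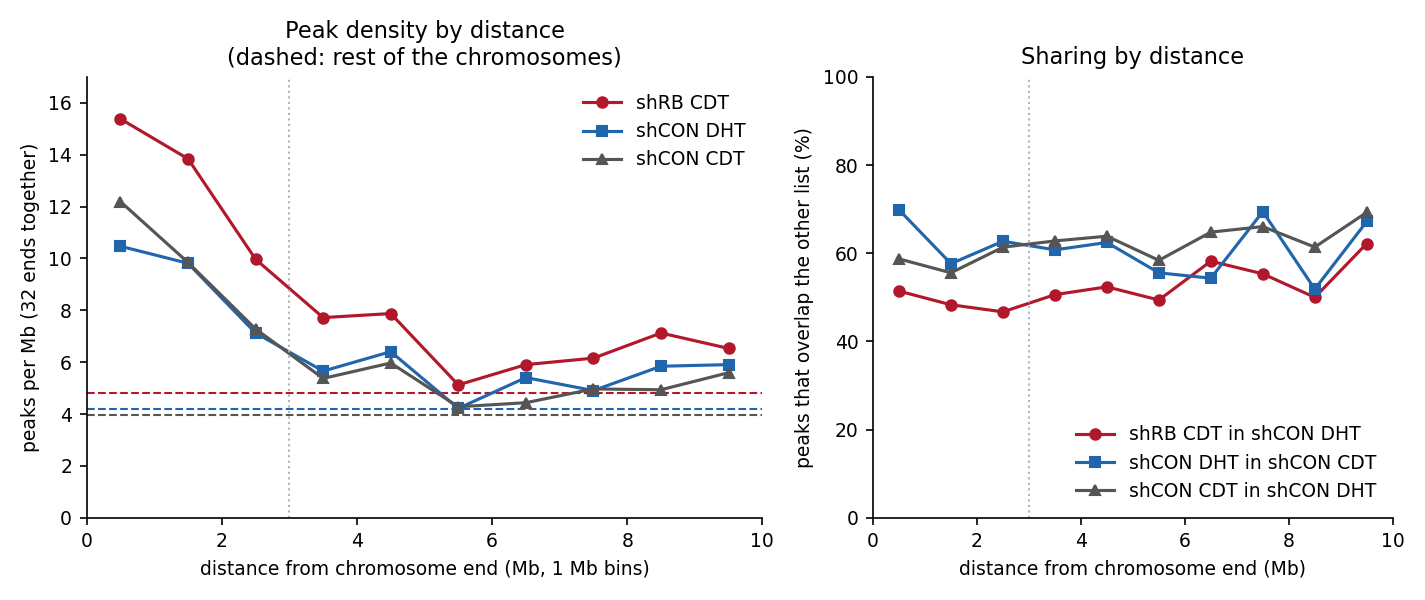
Left, peaks per Mb (32 ends together) against distance from the chromosome end in 1 Mb bins, for shRB CDT, shCON DHT and shCON CDT, with dashed lines at the density of the rest of the chromosomes and a dotted line at 3 Mb. Right, the percentage of peaks in each bin that overlap another list (shCON DHT for the CDT lists, shCON CDT for shCON DHT), with no step at 3 Mb. Density is highest in the first Mb, at 15.4, 10.5 and 12.2 peaks per Mb, and falls over the next few Mb.

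The nearest peak inside it was a shRB CDT peak on chromosome 3 from 194814487 to 194815641, 5.71 kb within, with a score of 512. A shCON CDT peak at the same site lay 6.30 kb within, with a score of 583. The next inside were shRB CDT peaks on 8p, 8.496 kb within with a score of 568, and on 12q, 9.26 kb within with a score of 534. The 4 nearest outside crossed the boundary by 0.394, 0.512 and 0.757 kb on 12p in shCON CDT, shCON DHT and shRB CDT and by 0.697 kb on 6p in shRB CDT, and all 4 had the score cap of 1000, above the 4 nearest inside. The 3 on 12p are 1 site. In all, 2 shRB CDT, 1 shCON DHT and 2 shCON CDT peaks lay across a boundary and were counted with the rest.

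The ends differed widely from each other, and in much the same order in each list. The end of 16p was the fullest, with 74 peaks in shRB CDT, 68 in shCON DHT and 63 in shCON CDT. The end of 8q followed with 71, 61 and 51, and 9q with 58, 44 and 45. The end of 1p held 61, 40 and 45 peaks in the same order of lists. The ends of 16q (57, 41 and 43) and 17q (55, 42 and 44) tied on their sum of 141. Over the 3 lists together, 16p and 8q held more peaks than any interior 3 Mb window of any of the 18 chromosomes. At the other extreme 3p held 5, 2 and 2 peaks, and 9p held 12, 8 and 11. The ends of 6p (12, 10 and 10), 2p (12, 6 and 17) and 11q (14, 14 and 11) were also sparse. Over the 3 lists together only 6.84% of the interior windows with a peak held fewer peaks than 3p, so not every end was dense. The median end held 40.5 shRB CDT peaks, 25.5 shCON DHT peaks and 28.5 shCON CDT peaks, against interior window medians of 12, 12 and 11. Of the 32 ends, 26, 25 and 28 were above the upper quartile of interior windows (20, 17 and 16 peaks) in these lists.

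**Figure D2:**
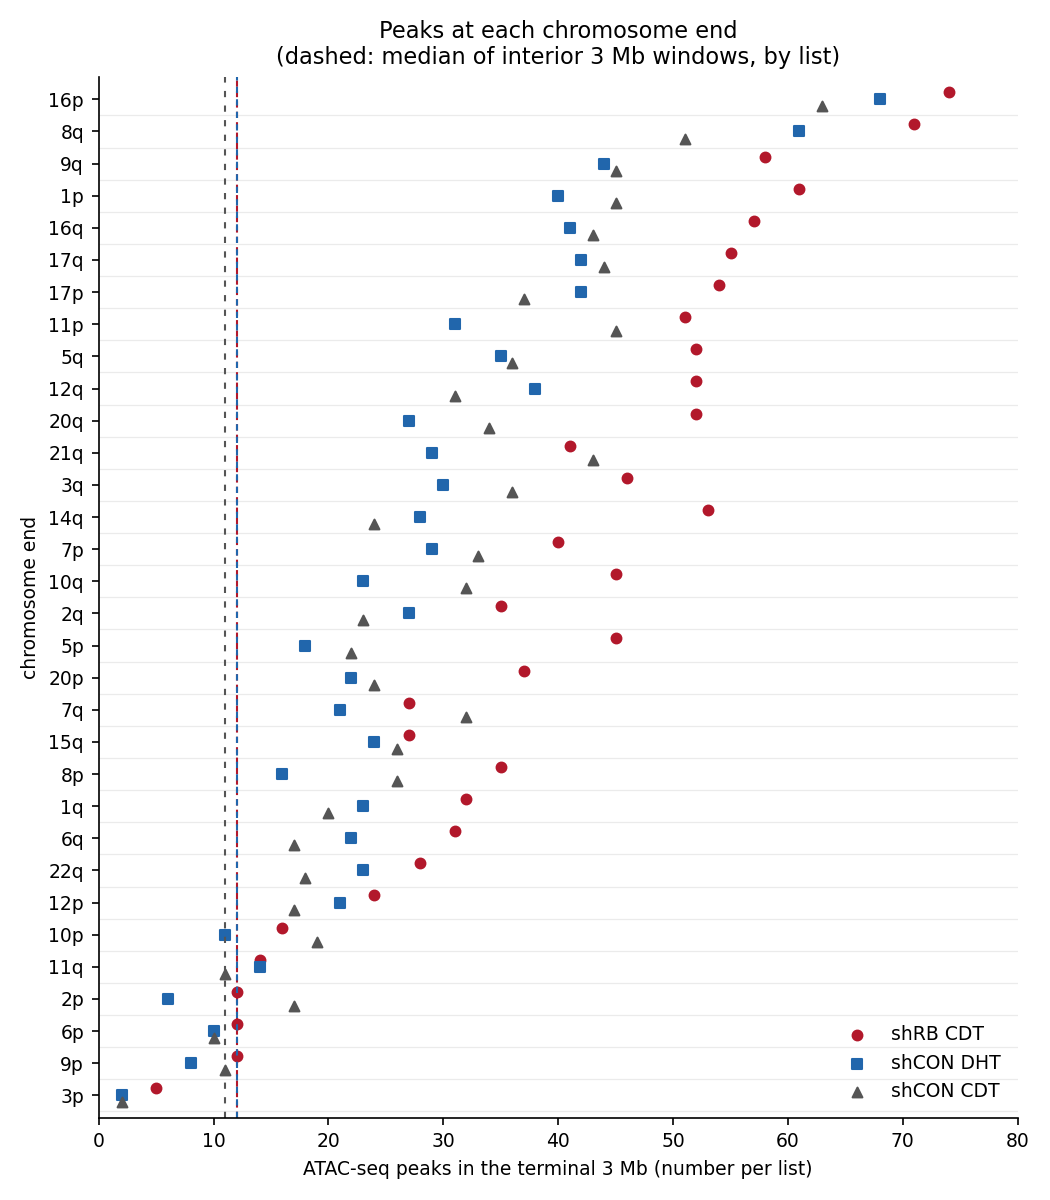
Number of peaks in the terminal 3 Mb (horizontal axis) at each of the 32 chromosome ends (vertical axis, ordered by the sum over lists) in shRB CDT, shCON DHT and shCON CDT. Dashed lines mark the median interior 3 Mb window, at 12, 12 and 11 peaks, and the ends run from 3p with 5, 2 and 2 peaks to 16p with 74, 68 and 63.

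Across the 32 ends, Spearman's rho between peak numbers was 0.888 for shRB CDT with shCON CDT, 0.897 for shCON DHT with shCON CDT and 0.922 for shRB CDT with shCON DHT. These describe the lists only, since the ends share their sequence and gene content between lists. A chromosome's end density followed the density of its remaining part less closely. Over 18 chromosomes Pearson's r was 0.240 in shRB CDT, 0.463 in shCON DHT and 0.257 in shCON CDT, and Spearman's rho was 0.191, 0.252 and 0.186. Chromosome 21 was the steepest case in both CDT lists, with 13.7 peaks per Mb at the end and 2.31 in the rest in shRB CDT, and 14.3 and 2.995 in shCON CDT. Chromosome 8 was the steepest in shCON DHT, with 12.8 and 3.48. Chromosome 22 was nearly flat in shCON CDT, with 18 peaks at its end and a ratio of end to rest density of 1.1, the lowest of the 18 chromosomes in that list.

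Peaks at the ends lay closer together, and their median width was lower in each list. The median distance to the nearest other peak of the same list was 17.5 kb (16.1 to 19.4) in the ends and 40.0 kb (38.7 to 41.4) in the rest in shRB CDT. It was 24.1 kb (21.1 to 27.1) in the ends and 44.1 kb (42.3 to 45.8) in the rest in shCON DHT, and 24.7 kb (22.1 to 26.99) and 48.6 kb (47.1 to 50.6) in shCON CDT. In shRB CDT the median width was 941.5 bp (908 to 981) in the ends and 1004 bp (993 to 1013) in the rest. In shCON DHT it was 750.5 bp (719 to 779) in the ends and 784 bp (773 to 793) in the rest, and in shCON CDT 860 bp (832 to 899) and 949 bp (939 to 960). The ratio of the end median to the rest median was 0.938, 0.957 and 0.906 in shRB CDT, shCON DHT and shCON CDT, and a conservative interval for shCON DHT (0.907 to 1.01) reached 1. The interval of shRB CDT also reached 1 within 1 Mb (0.869 to 1.01) and 5 Mb (0.924 to 1.009) of the end, among the higher-scoring 50% (0.9325 to 1.016), with equal list lengths (0.906 to 1.006) and without chromosome 8 (0.902 to 1.002). That of shCON CDT did so within 1 Mb (0.862 to 1.002). Among peaks below the score cap, shRB CDT medians were 850 bp (792 to 880) in the ends and 870 bp (855 to 885) in the rest, and shCON CDT medians were 794 bp (753 to 834) and 833 bp (819 to 848). These intervals overlap in both lists, which does not decide whether the medians differ, and the difference within that band was not tested. At the cap, shRB CDT medians were 1171 bp (1138 to 1222) in the ends and 1203 bp (1189 to 1217) in the rest, while shCON CDT medians of 1053 bp (976 to 1120) in the ends and 1142 bp (1125 to 1157) in the rest had intervals apart.

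The deposited score was ranked within each list, and end peaks ranked below the rest in both CDT lists. The median end peak stood at the 44.0 percentile (41.3 to 46.6) of shRB CDT and the 43.8 percentile (39.8 to 47.3) of shCON CDT, whereas the rest stood at 50.8 and 50.7. In shCON DHT the end median was at the 50.6 percentile (45.5 to 52.9) and the rest at 49.96, with an interval that overlaps those of the CDT lists. The score is capped at 1000. The share of peaks at the cap was 29.1% (26.6 to 31.7) in the ends and 35.5% (34.6 to 36.4) in the rest in shRB CDT, and 24.65% (21.9 to 27.5) and 33.4% (32.5 to 34.4) in shCON CDT. In shCON DHT it was 27.97% (25.02 to 31.1) in the ends and 27.3% (26.4 to 28.2) in the rest. At or below the 25 percentile of its own list lay 354 shRB CDT end peaks (28.2%), 219 shCON DHT end peaks (25%) and 284 shCON CDT end peaks (30.3%), against 24.7%, 25.05% and 24.4% in the rest. The difference between lists in this respect was not tested.

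The highest-scoring end peaks, ties at the cap taken widest first, were open in every condition. In shRB CDT they lay on 8q from 145978932 to 145981466 and on 16q from 89766547 to 89768884. In shCON DHT both lay on 17q, from 81008717 to 81010526 and from 80708996 to 80710794. In shCON CDT they lay on 9q from 140499377 to 140501966 and on 9p from 2014720 to 2017279. All 6 overlapped a peak with a score of 1000 in both other lists. The widths at 1 site could still differ between lists, as at the 9p site, where the shRB CDT peak was 1120 bp wide, the shCON DHT peak 1608 bp and the shCON CDT peak 2560 bp.

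After RB depletion the ends had more listed sites than in control cells, as did the rest, and the excess of the ends over the rest was slight. The question was whether the net change in listed sites with RB loss, gains less losses, was larger at the ends than elsewhere. Where sites without a counterpart lie is a separate question, given further below with the sharing of peaks. The shRB CDT list held 1254 end peaks against 937 in shCON CDT, a ratio of 1.34 (1.23 to 1.46), while the rest held 11245 against 9243, a ratio of 1.22 (1.18 to 1.25). The ends' ratio was thus 1.10 times that of the rest (1.01 to 1.20). This interval reached 1 within 1 Mb of the end (1.03, 0.898 to 1.18), after trimming all lists to equal length (1.05, 0.960 to 1.16), and among the higher-scoring 50% (1.08, 0.943 to 1.23). Set against the densest 73 interior windows, chosen after seeing the data, it was 1.09 (0.983 to 1.20). The interval also reached 1 when any of chromosomes 5, 6, 8, 12, 14, 17 and 20 was left out, lowest without chromosome 14 (1.08, 0.986 to 1.18). It stayed above 1 when any other chromosome was dropped. The same held within 5 Mb of the end (1.11, 1.03 to 1.20) and with short arms started at the first peak (1.098, 1.005 to 1.199). The shRB CDT list had more peaks at 28 of 32 ends and fewer at 4. Among interior windows with a peak, it had more in 486 of 731 (66.5%), the same number in 96 and fewer in 149. The 4 ends with fewer shRB CDT peaks were 2p (12 against 17), 10p (16 against 19), 7q (27 against 32) and 21q (41 against 43).

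Only a few ends stood out singly in the RB comparison. The end of 14q held 53 shRB CDT peaks against 24 in shCON CDT, a ratio of 2.21 (1.34 to 3.74). The end of 5p held 45 against 22, a ratio of 2.05 (1.20 to 3.58), and 12q held 52 against 31, a ratio of 1.68 (1.055 to 2.71). These were the 3 of 32 ends whose own interval left out 1, with no adjustment for the 32 looked at. The intervals take no account of sites that both lists hold, so this count depends on that choice. At 14q the numbers were 9 against 3 in the first Mb, 33 against 18 in the second and 11 against 3 in the third. At 5p they were 21 against 15, 17 against 5 and 7 against 2. These ends were picked by their values.

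**Figure D3:**
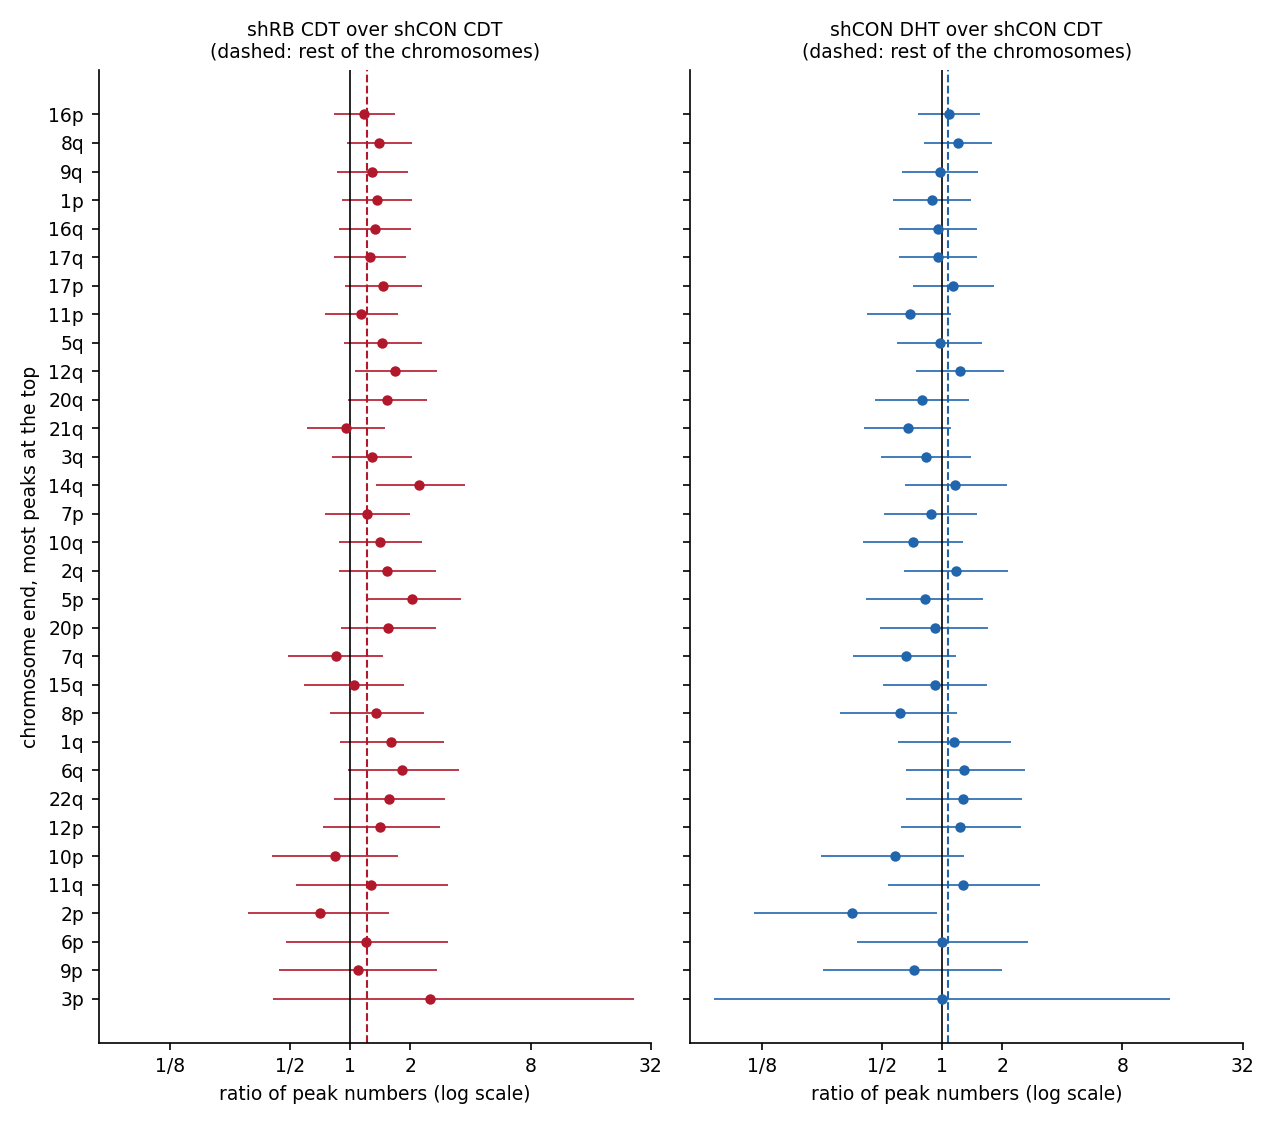
Ratio of peak numbers (log axis) at each of the 32 ends, for shRB CDT over shCON CDT on the left and shCON DHT over shCON CDT on the right, with exact 95% counting intervals and dashed lines at the ratio in the rest of the chromosomes (1.22 and 1.06). Points lie above 1 at 28 ends on the left and at 11 on the right, and most single intervals span 1.

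After 3 hours of DHT the ends had slightly fewer listed sites while the rest had slightly more. The shCON DHT list held 876 end peaks against 937 in shCON CDT, a ratio of 0.935 (0.852 to 1.03), and the rest held 9840 against 9243, a ratio of 1.06 (1.03 to 1.10). The ends' ratio was 0.878 times that of the rest (0.7975 to 0.967). Among the higher-scoring 50% of each list this turned to 1.02 (0.888 to 1.18). With the densest 73 interior windows in place of the rest, it was 0.941 (0.844 to 1.05). Against the rest, the interval left out 1 within 1 Mb (0.810, 0.698 to 0.940) and 5 Mb (0.912, 0.8395 to 0.990) of the end. The same held with equal list lengths (0.893, 0.810 to 0.985) and whichever chromosome was left out. The shCON DHT list had more peaks at 11 ends, the same number at 2 and fewer at 19, while it had more in 387 of the 731 interior windows (52.9%), the same in 99 and fewer in 245. The 2p end, with 6 against 17 peaks and a ratio of 0.353 (0.114 to 0.938), was the 1 end whose interval left out 1. The covered sequence was lower in shCON DHT in both parts, with 693 kb against 857 kb in shCON CDT at the ends and 7919 kb against 8991 kb in the rest.

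Set directly against the DHT-treated cells, the RB-depleted cells had more end peaks at 31 of 32 ends and the same number at 11q. The totals were 1254 in shRB CDT and 876 in shCON DHT, a ratio of 1.43 (1.31 to 1.56), against 1.14 (1.11 to 1.17) in the rest. The ends' ratio was 1.25 times that of the rest (1.14 to 1.37). It was 1.18 (1.072 to 1.3) with the lists cut to one length, and 1.055 (0.925 to 1.20) among the higher-scoring 50% of each list. The ratio of end to rest was above 1 on 16 of 18 chromosomes, against 13 for shRB CDT over shCON CDT and 5 for shCON DHT over shCON CDT. The comparisons share lists in pairs and are not independent of each other.

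Many end sites of the CDT lists had no counterpart in another list. A peak counted as shared when it overlapped a peak of the other list by at least 1 bp. Of the 1254 shRB CDT end peaks, 628 (50.1%) had no shCON CDT counterpart, against 40.4% in the rest and 40.9% over all chromosomes. Against shCON DHT, 638 of them (50.9%) had none, with 42.1% in the rest and 42.1% over all chromosomes. Of the 937 shCON CDT end peaks, 309 (33.0%) had no shRB CDT counterpart, against 26.6% in the rest and 26.8% over all chromosomes. Against shCON DHT, 391 of them (41.7%) had none, with 34.65% in the rest and 34.6% over all chromosomes. By distance the lower sharing of shRB CDT peaks with shCON DHT did not stop at 3 Mb. In the 1 Mb bins of the ends, going inwards, 51.4, 48.3 and 46.7% of shRB CDT peaks overlapped shCON DHT. From 3 to 6 Mb it was 50.6, 52.4 and 49.4%, and from 6 to 10 Mb 58.2, 55.3, 50 and 62.2%, against 57.9% in the rest. For shCON CDT in shCON DHT the bins of the ends had 58.7, 55.6 and 61.4%, against 65.35% in the rest. From 3 to 6 Mb they had 62.8, 63.9 and 58.4%, and from 6 to 10 Mb 64.8, 66.0, 61.4 and 69.3%. The bins from 3 to 6 Mb held only 172, 191 and 137 shCON CDT peaks, and no interval was taken by bin.

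Peaks of the DHT list taken whole were shared at the ends about as often as elsewhere. Of the 876 shCON DHT end peaks, 319 (36.4%) had no shCON CDT counterpart, against 36.5% in the rest and 36.7% over all chromosomes. Against shRB CDT, 246 (28.1%) had none, with 30.7% in the rest and 30.6% over all chromosomes.

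Expressed as the shared percentage in the ends minus that in the rest, the difference was -9.67 percentage points (-12.6 to -6.76) for shRB CDT in shCON CDT and -8.74 (-11.65 to -5.83) for shRB CDT in shCON DHT. It was -6.41 (-9.61 to -3.33) for shCON CDT in shRB CDT and -7.08 (-10.4 to -3.81) for shCON CDT in shCON DHT. For shCON DHT it was 2.63 (-0.568 to 5.65) in shRB CDT and 0.0885 (-3.29 to 3.35) in shCON CDT, both with intervals across 0. Sharing was lower in the ends than in the rest of the same chromosome on 15 of 18 chromosomes for shRB CDT in shCON CDT and on 14 for shRB CDT in shCON DHT. For shCON CDT it was lower on 14 in shRB CDT and on 13 in shCON DHT. For shCON DHT it was lower on 8 chromosomes in shRB CDT and on 11 in shCON CDT. Among the higher-scoring 50% of each list, the difference was -4.92 (-9.25 to -0.763) for shRB CDT in shCON CDT, and the intervals of the other 5 pairs spanned 0. Within 1 Mb of the end, shCON DHT peaks were shared more often than in the rest, by 7.45 points (2.55 to 11.75) in shRB CDT and 6.55 points (1.35 to 11.3) in shCON CDT.

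Score moves with sharing, so the percentages were also taken within bands of score. At the cap, end peaks were shared nearly as often as others: 92.1% of shRB CDT end peaks and 93.1% of the rest were in shCON DHT, and 99.1% of shCON CDT end peaks and 98.25% of the rest were in shRB CDT. The 1 pair whose difference left out 0 at the cap was shRB CDT in shCON CDT, with 91.8% in the ends and 95.04% in the rest, a difference of -3.26 points (-6.595 to -0.757). Below the cap, 32.7% (29.65 to 35.9) of shRB CDT end peaks and 40.1% (38.9 to 41.2) of the rest were in shCON CDT. Below the cap, 56.5% (52.8 to 60.2) of shCON CDT end peaks and 61.0% (59.7 to 62.2) of the rest were in shRB CDT, and 46.5% (42.7 to 50.2) and 50.25% (48.99 to 51.5) were in shCON DHT, where the interval of the difference (-7.65 to 0.101) touched 0. Between the 25 and 50 percentiles of score all 4 differences of the CDT lists were between -7.71 and -7.47 points. Above the 50 percentile and below the cap they were between -5.84 and -0.442, and each interval spanned 0. At or below the 25 percentile they were between -3.90 and -0.222, and each interval there spanned 0. For shCON DHT the differences in that lowest band were positive and left out 0, at 7.54 points (1.05 to 14.4) in shRB CDT and 7.095 points (1.02 to 13.75) in shCON CDT.

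Interior stretches as crowded as the ends gave another yardstick, chosen after these values were seen. The 73 interior 3 Mb windows above the 90 percentile held 13.5 shRB CDT, 10.9 shCON DHT and 11 shCON CDT peaks per Mb, against 13.1, 9.125 and 9.76 in the ends. For shRB CDT in shCON CDT these windows gave 62.0% (60.2 to 63.7) shared, against 49.9% (47.1 to 52.7) in the ends. For shCON CDT in shRB CDT the windows gave 78.0% (76.3 to 79.6) and the ends 67.0% (63.9 to 70.0). For shCON DHT they gave 78.65% in shRB CDT and 71.0% in shCON CDT, against 71.9% and 63.6% in the ends. Against these crowded windows all 6 differences ran the same way, from -12.05 to -6.74 points. Scores differed too: the median peak of the windows stood at the 53.9 percentile in shRB CDT, 55.55 in shCON DHT and 52.65 in shCON CDT, above the ends, and a window picked for many peaks in 3 lists together is also more likely to hold shared ones. The part of either in the difference was not tested.

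**Figure D4:**
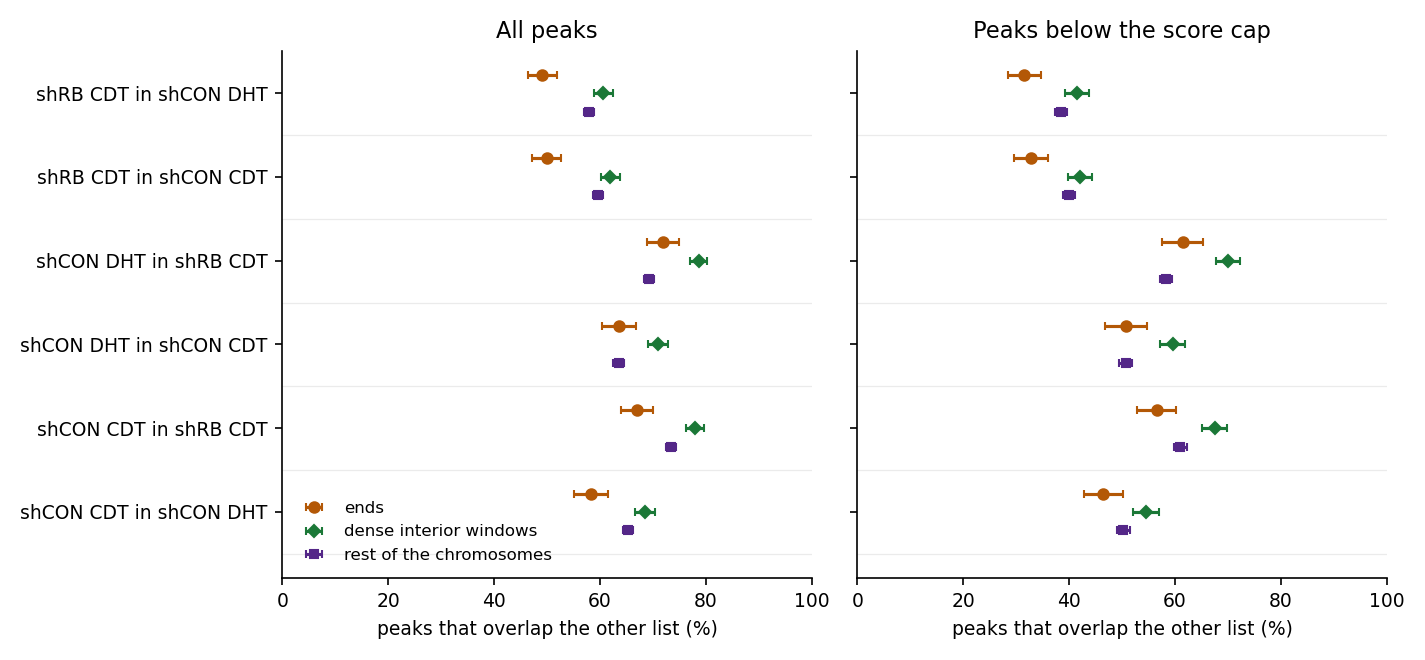
Percentage of a list's peaks that overlap a peak of another list (horizontal axis) for the 6 ordered pairs of lists, in the ends, in the 73 dense interior windows (a subset of the rest) and in the rest of the chromosomes, with exact 95% counting intervals. The left panel has all peaks and the right panel those below the score cap. For both CDT lists the ends lie lowest, for example at 49.9% against 62.0% and 59.6% for shRB CDT in shCON CDT.

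Joined across lists by overlap, the peaks made 1737 regions in the ends and 16035 in the rest. Regions in shRB CDT only numbered 515 at the ends (29.65%, 27.5 to 31.9), against 22.4% (21.8 to 23.1) in the rest. Regions of all 3 lists numbered 492 (28.3%, 26.2 to 30.5) in the ends, against 34.2% (33.5 to 34.95) in the rest. The intervals of these 2 classes overlap at the ends, and the order turned round within 1 Mb (28.2% for shRB CDT only and 31.5% common) and with peaks within 500 bp joined (28.7 and 30.2%). It also turned round among the higher-scoring 50% (19.2 and 41.9%). Another 270 (15.5%, 13.9 to 17.3) were in shCON CDT only, against 12.5% (12.0 to 13.1) in the rest, and 201 (11.6%, 10.1 to 13.2) in shCON DHT only, against 15.8% (15.3 to 16.4). Regions of exactly 2 lists took like shares at the ends and elsewhere: 5.93% and 5.69% for shRB CDT with shCON DHT, 6.74% and 6.69% for shRB CDT with shCON CDT, and 2.245% and 2.63% for shCON DHT with shCON CDT. By length, shRB CDT regions held alone were 3.49 times (3.18 to 3.83) as dense in the ends as in the rest, shCON CDT regions held alone 3.27 times (2.87 to 3.72), common regions 2.19 times (1.99 to 2.40) and shCON DHT regions held alone 1.93 times (1.66 to 2.23). In the 73 crowded interior windows the common class took 39.3% (37.8 to 40.9) and the shRB CDT class 22.2% (20.9 to 23.5). After cutting every list to the same length, the shRB CDT class took 20.5% of end regions, the shCON CDT class 19.6% and the common class 31.75%, so the common class then led both.

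**Figure D5:**
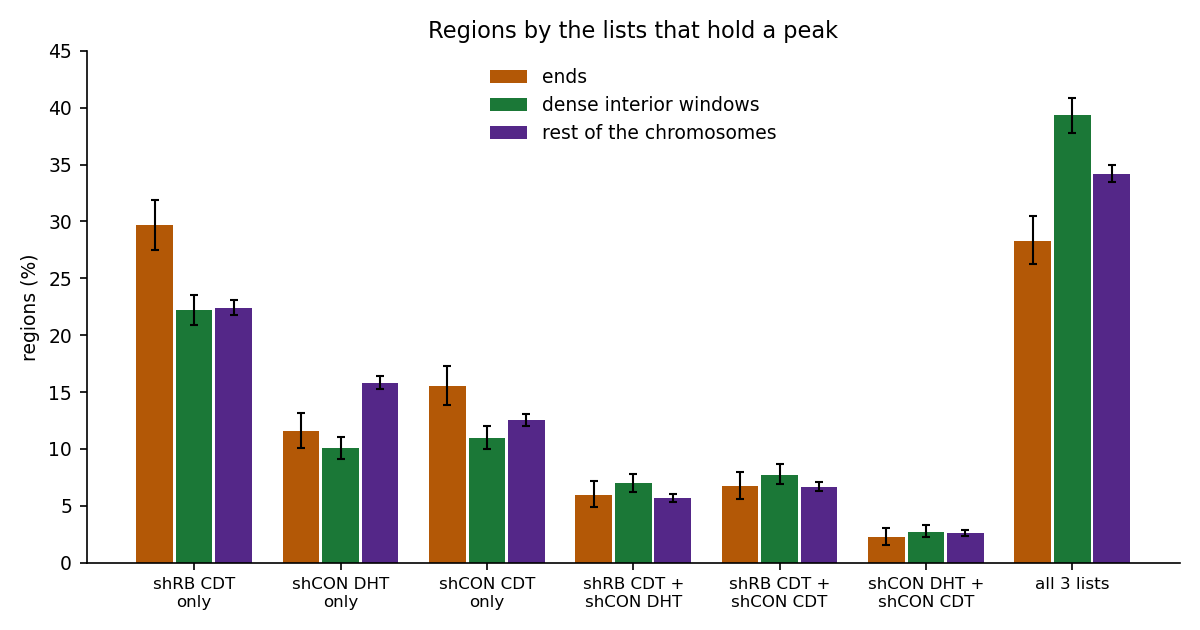
Percentage of regions (vertical axis) by the lists that hold a peak in them, for the ends, the dense interior windows (a subset of the rest) and the rest of the chromosomes, with exact 95% counting intervals. The ends hold more regions of shRB CDT only (29.65% against 22.4% in the rest) and fewer of all 3 lists (28.3% against 34.2%).

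The regions held by 1 list were spread over the ends and not gathered at a few. Regions of shRB CDT only occurred at 32 of 32 ends, with a median of 16 and a range of 3 to 32, and the 5 fullest ends held 27.8% of them. The end of 14q had 32 such regions of 72, 5p had 31 of 59, 20q had 29 of 67, 8q had 26 of 102 and 12q had 25 of 73. Of the 32 regions at 14q, 6 were in the first Mb and 18 in the second. As a share of the end's regions, shRB CDT only ran from 13.95% at 15q to 52.5% at 5p. Regions of shCON CDT only also occurred at 32 ends, most of all at 7q with 19 of 55, of which 13 were in the first Mb, and they made up 44.0% (11 of 25) at 2p. Regions of shCON DHT only occurred at 31 ends, with 18 of 102 at 8q, 12 of 98 at 16p and none at 3p. The common class was largest at 16p, with 42 of 98 regions (42.9%), and smallest in share at 14q, with 9 of 72 (12.5%).

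Single-list regions at the ends were narrow and common ones wide, as elsewhere. The median region was 693 bp for shRB CDT only in the ends and 698 bp in the rest, 481 and 480 bp for shCON DHT only, and 639.5 and 585 bp for shCON CDT only. Common regions had a median of 1371 bp in the ends and 1357 bp in the rest, in part because a region spans all its linked peaks. At the 430 end regions with exactly 1 peak in each list, widths were divided site by site. The median of these ratios for shRB CDT over shCON CDT was 1.05 (1.03 to 1.085). At 4810 such regions in the rest it was 1.04 (1.03 to 1.04). The median widths themselves were 1168 and 1045 bp in the ends and 1177 and 1107 bp in the rest. For shCON DHT over shCON CDT the median site-by-site ratio was 0.923 (0.883 to 0.968) in the ends and 0.890 (0.883 to 0.900) in the rest. The shCON DHT peak was the wider at 40.0% of end regions and 32.6% of the others.

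End peaks without a counterpart mostly had low scores, as such peaks did elsewhere. Their median stood at the 27.1 percentile (24.3 to 29.3) for shRB CDT peaks absent from shCON CDT and at the 21.2 percentile (17.2 to 23.5) for shCON CDT peaks absent from shRB CDT. For shCON DHT peaks absent from shCON CDT it was the 27.3 percentile (24.2 to 31.3), and for shCON CDT peaks absent from shCON DHT the 23.1 percentile (20.3 to 26.0). In the rest these medians were 25.7, 21.01, 24.2 and 24.1 in the same order. At the score cap, 30 of 365 shRB CDT end peaks were absent from shCON CDT (8.22%, against 4.96% in the rest) and 2 of 231 shCON CDT end peaks were absent from shRB CDT (0.866%, against 1.75%). Between the hormone states, 8 of 245 shCON DHT end peaks at the cap were absent from shCON CDT (3.27%, against 2.38%) and 13 of 231 shCON CDT end peaks at the cap were absent from shCON DHT (5.63%, against 4.57%). Apart from the first, these shares lay near those in the rest.

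The 3 widest shRB CDT end peaks at the cap with no shCON CDT counterpart lay on 12p from 1702277 to 1704588, on 14q from 105780397 to 105782169 and on 20p from 1205966 to 1207505. The nearest shCON CDT peaks were 66.0, 12.2 and 106 kb away. All 3 overlapped a shCON DHT peak, with scores of 696, 572 and 571. In the other direction the top 3 shCON CDT peaks missing from shRB CDT were narrow, at 258 bp on 9q from 140444794 to 140445051, 150 bp on 15q from 101141625 to 101141774 and 163 bp on 11p from 535093 to 535255. They lay only 0.523, 0.160 and 0.045 kb from a shRB CDT peak, so the peaks on 15q and 11p had a shRB CDT peak within 500 bp. None of the 3 overlapped a shCON DHT peak either, and the nearest were 0.486, 0.283 and 0.264 kb away.

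The top 3 shCON DHT end peaks with no shCON CDT counterpart lay on 14q from 104387362 to 104388249, on 12q from 132674002 to 132674661 and on 22q from 50353647 to 50354266. They were 10.15, 55.05 and 10.1 kb from a shCON CDT peak, and all 3 overlapped a shRB CDT peak, with scores of 435, 1000 and 903. The top 3 shCON CDT end peaks missing from shCON DHT lay on 8q from 143750771 to 143751915, on 15q from 100889592 to 100890677 and on 11q from 132952397 to 132953314. The nearest shCON DHT peaks were 56.3, 6.76 and 119 kb away. All 3 sites were also open in shRB CDT, with scores of 566, 439 and 682.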

How the data were processed

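ATAC-seq was run on 6 libraries, 2 for each of 3 groups, and the deposited data are 3 peak lists, 1 per group, each pooling replicates 1 and 2 per the labels. Positions are hg19, per the submitters' processing notes, and are given counted from 1. Per the labels, each reaction used 75000 cells and 30 minutes of transposition at 37 °C, and the list names give an IDR (irreproducible discovery rate) threshold of 0.1 and mention that peaks were filtered, merged and scored. The sources used here name no aligner, peak caller or read filter, nor whether reads were shifted for the transposase. The deposited score is a whole number from 413 to a cap of 1000 whose scaling no header or label states. It was used only to rank peaks within a list, over the 18 chromosomes studied.

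Overlaps, regions and intervals were computed with scipy 1.17.1, pandas 2.3.3 and numpy 2.4.6 under Python 3.11.15, and plots drawn with matplotlib. The code was tested on simulated lists with known answers and recovered 28 of 28. Shares carry Clopper-Pearson intervals, differences of shares Newcombe intervals, density and list ratios exact conditional binomial intervals, ratios of ratios a log interval that treats peaks as independent counts, and medians order-statistic intervals. Interior windows of 3 Mb were tiled between the ends and assigned peaks lying wholly inside. Alternatives were 1 and 5 Mb from the end, short-arm ends at the first peak, sharing by a 50% reciprocal overlap or by a gap of up to 500 bp, the higher-scoring 50% of each list, lists cut by score to 12096 peaks, and each chromosome left out. Ends named in full are the 5 fullest and the 5 emptiest. Peaks named are the 2 highest-scoring of each list, the 3 highest-scoring without a counterpart in each direction of the RB and DHT comparisons, the 3 nearest a short-arm end and the 4 nearest the boundary on each side, with ties broken by width. The members and settings were chosen with earlier results of these data known. Sequences and genes at the peaks were not used here, because the reference tables at hand are of another genome build.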

Additional observations from a re-analysis of the deposited data

How the results depend on the processing

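No paired analysis was possible because replicates 1 and 2 are pooled in every list, which also prevents leaving out a replicate. Of 221 recomputed values, 176 stayed within the counting interval of the value reported, 44 moved outside it and 1 turned round. A value could count as turned round only where its reported interval left out no difference. Other changes of sign are among the 176 and 44, as for shCON DHT in shRB CDT, 2.63 as reported and -6.74 against the dense windows. The shCON CDT list already had the common length, so its share, density ratio and width ratio stayed there by construction. Where no construction is named, the cause was not tested. Starting short arms at the first peak, a 50% reciprocal overlap and peaks within 500 bp counted as shared moved none of the 28, 6 and 13 values recomputed. Lists are given in the order shRB CDT, shCON DHT, shCON CDT.

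Within 1 Mb of the end the share of peaks was 3.94, 3.13 and 3.83%, by construction, and the density ratio 3.08, 2.42 and 2.99. Within 5 Mb the shares were 14.03, 11.8 and 12.8% and the ratios 2.32, 1.90 and 2.08. At 1 Mb the sharing differences were -5.79 points for shRB CDT in shCON DHT, -4.53 for shRB CDT in shCON CDT, and, for shCON DHT, 7.45 in shRB CDT and 6.55 in shCON CDT. The intervals of the last pair then left out 0. The class of shCON DHT only took 9.61% and the common class 31.5% at 1 Mb.

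Among the higher-scoring 50% of each list the shares were 8.64% in shRB CDT and 8.065% in shCON CDT and their density ratios 2.31 and 2.14. The sharing differences there shrank to -3.33 for shRB CDT in shCON DHT, -4.92 for shRB CDT in shCON CDT, and, for shCON CDT, to -0.963 in shRB CDT and -1.52 in shCON DHT. The list ratio of ends to rest was 1.055 for shRB CDT over shCON DHT and turned to 1.02 for shCON DHT over shCON CDT. Classes held alone then took 19.2, 9.955 and 7.84%, shRB CDT with shCON DHT 9.65%, shRB CDT with shCON CDT 8.75% and the common class 41.9%. With lists cut to one length, shRB CDT only took 20.5%, shCON CDT only 19.6%, both shCON lists 3.48% and the common class 31.75%.

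Against the dense interior windows, a setting chosen after seeing the data, the differences were -6.74 and -7.43 for shCON DHT, in shRB CDT and shCON CDT, and -10.9 for shCON CDT in shRB CDT. Without chromosome 16 the shares of peaks were 9.45, 7.54 and 8.60%, and without chromosome 1 the shRB CDT share was 10.7%.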

Other observations

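The outermost sites of the short arms were not the same in each condition. Over 14 short arms the first peak lay at a median of 93.7 kb from position 0 in shRB CDT (10.2 to 292), 212 kb in shCON DHT (46.1 to 714) and 134 kb in shCON CDT (17.4 to 858). These lists held 478, 324 and 371 peaks at the short-arm ends, and the part of peak number in these distances was not tested. The nearest of all was a shRB CDT peak on 1p from 10199 to 10608, with a score of 1000 and no overlapping peak in the other lists. How reads from repeats or duplicated segments were placed is not stated. A peak this close to the end may therefore not mark an open site of its own, and its absence from other lists was not tested. The nearest shCON CDT peak was 6.80 kb away and the nearest shCON DHT peak 703 kb away. The next was a shRB CDT peak on 17p from 21831 to 22480, with a score of 549 and the nearest peaks 213 kb away in shCON DHT and 87.0 kb away in shCON CDT. The third, on 2p from 45211 to 47297, overlapped a peak in every list, with scores of 530, 798 and 872 and widths of 2087, 1223 and 595 bp in shRB CDT, shCON DHT and shCON CDT.

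On 7p, 8p, 12p and 16p the first peak of all 3 lists was at 1 site, as at 2p, so these ends began at a common place. At 8p it was narrow, with 322, 311 and 304 bp in shRB CDT, shCON DHT and shCON CDT. Its scores were 1000, 1000 and 787 in the same order, so it was at the cap in all but shCON CDT. At 16p the 3 peaks began between 103 and 104 kb from position 0, with scores of 1000, 1000 and 837. On the long arms the last peak in any list came from shRB CDT on 9 of 18 chromosomes, from shCON DHT on 4 and from shCON CDT on 6, with 1 tie. The median gap to the long-arm end was 0.004 kb in shRB CDT, 2.49 kb in shCON DHT and 0.014 kb in shCON CDT. The largest gaps were 186, 425 and 299 kb in the same order. A list that sets the end has no gap there by construction, so these medians do not show how often the lists ended at 1 site.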
